A study of Mus musculus with 4 samples.

Results

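The chemokine gene Cxcl12 and the genes of its receptors, Cxcr4 and Cxcr7, were examined in sorted cells of the mouse embryonic cortex. The members were the rows with these 3 symbols, and all 3 were found among the 23240 rows of the read count table. Cxcr7 is the older symbol of the gene now called Ackr3. Libraries of total RNA came from cortices at embryonic day 15.5. Heterozygous Nestin-GFP mice had been crossed with homozygous DCX-mRFP mice, and embryos of both groups carried both reporters. Green cells were sorted as neural progenitor cells (NPCs) and double-coloured cells as neurons, with 2 libraries in each group that the labels call duplicates. Whether these came from separate litters, and how many embryos were pooled, is not given in the sources used here, so a p-value here reflects just the spread of these libraries, which may be technical.

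Cxcl12 encodes a secreted chemokine that attracts migrating cells. Cxcr4 encodes the receptor that passes this signal to inhibitory G proteins. Cxcr7 encodes an atypical receptor that recruits arrestins rather than G proteins, takes up Cxcl12 and so shapes how much of it surrounding cells meet. In the developing cortex, Cxcl12 is known from the meninges and from the zone of intermediate progenitors, and both receptors are known from migrating interneurons and from Cajal-Retzius cells, the reelin-producing neurons of the cortical surface.

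Library totals ran from 52611828 to 55615142 counts. Expression is given as CPM (counts scaled to library size and by TMM factors, which correct for differences in RNA composition). Log2 changes compare neurons with NPCs, ± the standard error from edgeR's quasi-likelihood test, with p adjusted over all 15292 genes tested by the Benjamini-Hochberg method and called at 0.05. Nes and Dcx, the genes the reporters are named after, followed the labels. This is no finding, because the reporters defined the sort. Nes, which encodes nestin, was at 103 and 97.8 CPM in NPCs and 33.1 and 36.4 CPM in neurons, and Dcx, which encodes doublecortin, was at 468 and 493 CPM in NPCs and 1358 and 1441 CPM in neurons. Sequences around the start sites are shown first because transcription factor genes reported to act on the axis were among the genes measured. They are the 100 bases before each RefSeq start site in build GRCm38.p6, while the counts were made on mm9. Capitals mark the GC box GGGCGG, the TATA box TATAAA and the palindromic NRF1 motif, each searched on both strands.
Cxcl12, chr6:117168435-117168534, plus strand: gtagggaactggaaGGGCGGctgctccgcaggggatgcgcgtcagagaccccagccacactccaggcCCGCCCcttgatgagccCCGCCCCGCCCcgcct
Cxcr4, chr1:128592300-128592399, minus strand: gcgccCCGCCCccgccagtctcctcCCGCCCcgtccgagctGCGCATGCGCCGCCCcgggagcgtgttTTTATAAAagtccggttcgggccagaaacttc
Cxcr7, chr1:90203880-90203979, plus strand: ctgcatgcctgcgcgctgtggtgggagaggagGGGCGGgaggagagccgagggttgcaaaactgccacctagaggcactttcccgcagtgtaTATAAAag
Over the 250 bases before the start, Cxcl12 held 5 GC boxes and no TATA box, Cxcr4 held 3 GC boxes and a TATA box that reads on both strands, and Cxcr7 held 1 of each. Of 32851 mouse promoter windows of that length, 32.7% held a GC box and 12.4% a TATA box. The NRF1 palindrome stood only in the Cxcr4 window among these 3, where it overlaps a GC box, and in 0.782% of all windows. The core of the hypoxia response element, ACGTG, was in none of the 3 and in 16.6% of all windows. These matches describe the letters only.

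All 3 genes were expressed in both groups, and their levels differed little between progenitors and neurons. Cxcr7 was called higher in neurons, by 1.23-fold, and neither Cxcl12 nor Cxcr4 passed the test. The called member is 1 of 3, where 72.6% of all genes tested were called, 35.8% as higher in neurons and 36.9% as higher in NPCs. With TMM scaling the neuron libraries lay above the NPC libraries for all 3 members, and groups did not overlap for 86.0% of all genes tested.

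Cxcl12, the ligand, was at 60.6 and 59.7 CPM in the NPC libraries and at 64.6 and 61.1 CPM in the neuron libraries, from 3153 to 3563 reads in each library. The higher NPC library and the lower neuron library were 60.6 and 61.1 CPM, so the groups were apart by less than the neuron libraries were from each other. Means were 60.2 ± 0.63 CPM in NPCs and 62.8 ± 2.47 CPM in neurons (SD, n = 2). The log2 change was 0.06 ± 0.06 (edgeR adjusted p = 0.35), with a 95% interval from -0.06 to 0.19, that is from 0.957-fold to 1.14-fold. A smaller change in either direction was seen for 7.85% of genes tested. The direction depended on the scaling, at -0.04 with upper-quartile factors (adjusted p = 0.57) and at -0.14 with library size only, where Cxcl12 was called higher in NPCs (adjusted p = 0.035).

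Cxcr4, the signalling receptor, had the fewest reads of the 3, at 4.12 and 4.07 CPM in NPCs and 4.32 and 5.09 CPM in neurons. These values rest on 237, 243, 211 and 263 reads. Counting error alone gives the 211 reads of neuron replicate 1 a 95% exact Poisson interval from 183 to 241, and the 263 reads of neuron replicate 2 one from 232 to 297. The neuron libraries were farther from each other than neuron replicate 1 was from either NPC library. Means were 4.09 ± 0.031 CPM in NPCs and 4.71 ± 0.547 CPM in neurons (SD, n = 2). The log2 change of 0.20 ± 0.15 did not pass (edgeR adjusted p = 0.22). Its 95% interval ran from -0.11 to 0.51, so a difference of up to 1.43-fold lies within it. With library size only the change was -0.0041. The value depended on a single neuron library, at 0.33 (adjusted p = 0.075) without neuron replicate 1 and 0.09 (adjusted p = 0.67) without neuron replicate 2.

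Cxcr7, the atypical receptor, was at 49.0 and 47.0 CPM in NPCs and at 55.9 and 61.7 CPM in neurons, from 2732 to 3185 reads in each library. Both neuron libraries were above both NPC libraries by more than the NPC libraries were from each other. Means were 48.0 ± 1.37 CPM in NPCs and 58.8 ± 4.07 CPM in neurons (SD, n = 2), which is a log2 change of 0.29 ± 0.07 (edgeR adjusted p = 0.00070) with a 95% interval from 0.16 to 0.43. This call rested on the scaling. With library size as the only scaling the change was 0.09 and did not pass (adjusted p = 0.24). That scaling moved the median log2 change of all genes tested from -0.02 to -0.23 and the calls from 5467 higher in neurons and 5641 higher in NPCs to 3840 and 7610. Relative to the median of all genes, Cxcr7 was higher by 0.31 under both scalings, Cxcr4 by 0.22 and Cxcl12 by 0.08. The size of the Cxcr7 change was ordinary, and 33.9% of genes tested had a smaller one.

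**Figure D1:**
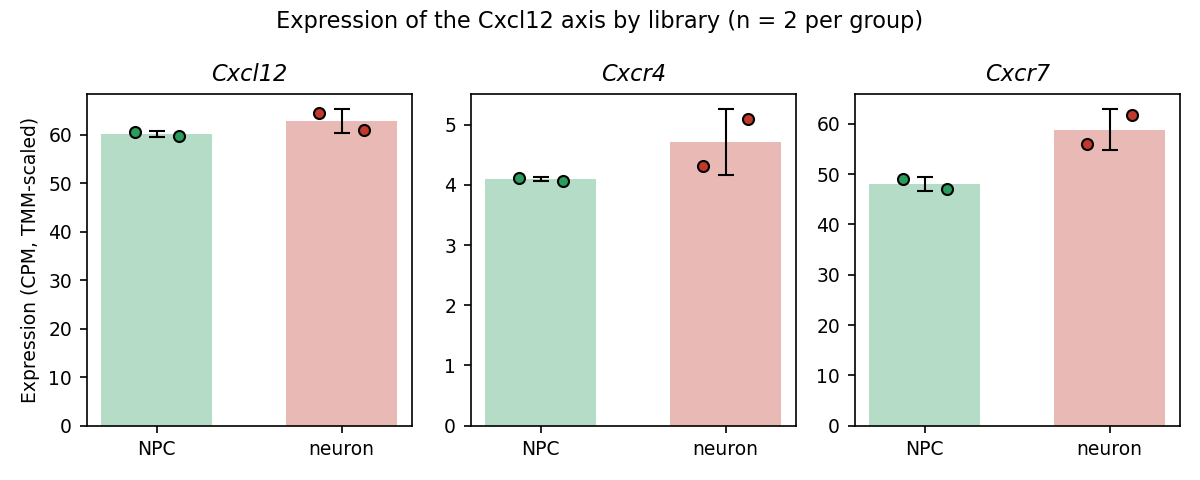
Expression of Cxcl12, Cxcr4 and Cxcr7 in CPM (y axis of each panel, from 0) in NPC and neuron libraries. Points are libraries, bars are group means and error bars are SD (n = 2); Cxcr7 went from a mean of 48.0 to 58.8 CPM, and Cxcr4 stayed near 4 to 5 CPM.

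**Figure D2:**
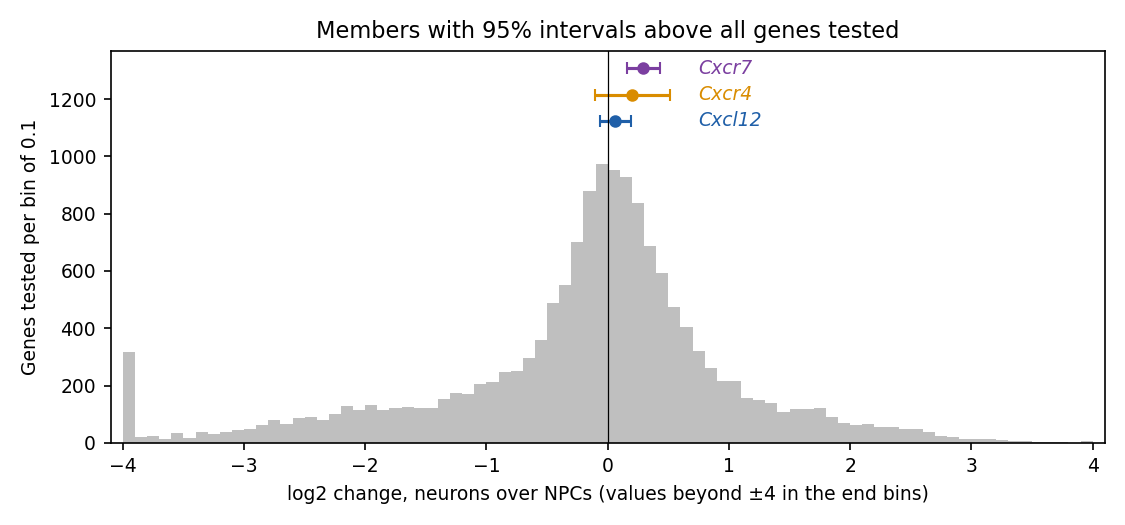
The log2 changes of all 15292 genes tested (grey histogram, neurons over NPCs, values beyond the axis counted in its end bins) with the 3 members and their 95% intervals drawn above it at arbitrary heights. All 3 members lie in the central peak, at 0.06, 0.20 and 0.29.

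Levels of different genes can be compared only per length, which was taken from the coding transcripts of GENCODE M21 rather than from the annotation used for counting. Cxcr7 has 1 such transcript of 3065 bases and Cxcr4 has 1 of 1805 bases. On the scale of CPM per kilobase, Cxcr7 was above Cxcr4 by 7.01-fold and 6.80-fold in the NPC libraries and by 7.63-fold and 7.13-fold in the neuron libraries. The atypical receptor thus had more RNA per length than the signalling receptor in all 4 libraries. Cxcl12 has 3 coding transcripts of 1878 to 5627 bases that the counts do not tell apart. Its level per kilobase was 3.85-fold to 14.4-fold that of Cxcr4 over all libraries and transcript choices. Against Cxcr7 it was 0.539-fold to 2.07-fold, so the order of Cxcl12 and Cxcr7 was not settled. None of the 3 genes overlaps another gene in GENCODE M21.

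Ratios within a library cancel scaling when they are compared between groups. Gene length cancels too if both groups use the same transcripts, which was not tested for the 3 coding transcripts of Cxcl12. The log2 ratio of Cxcr7 to Cxcr4 counts was 3.57 and 3.53 in NPCs and 3.69 and 3.60 in neurons, a difference of 0.10 between the group means. The groups did not overlap, and their means differed by no more than the neuron libraries did from each other. The difference was 0.05 without neuron replicate 1 and 0.14 without neuron replicate 2. For Cxcl12 to Cxcr7 the log2 ratio was 0.31 and 0.34 in NPCs and 0.21 and -0.01 in neurons, a difference of -0.23, with no overlap between the groups. This was -0.34 without neuron replicate 1 and -0.12 without neuron replicate 2. For Cxcl12 to Cxcr4 it was 3.88 and 3.87 in NPCs and 3.90 and 3.58 in neurons, a difference of -0.13 that turned to 0.02 without neuron replicate 2. Exact two-sided permutation tests gave p = 0.33 for the first and second ratios and p = 1 for the third, adjusted to 0.50, 0.50 and 1 over these 3 comparisons, where 2 libraries against 2 cannot go below 0.33.

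By the distance between log2 values centred on each gene's mean over the 4 libraries, the genes most like Cxcr7 were Zfp770 (distance 0.012), Timm9 and Akr1a1. Those most like Cxcr4 were Rpl10 (distance 0.024), Rnf31 and Chd8, and those most like Cxcl12 were Prpsap2 (distance 0.0088), Yipf4 and Sco2. The named genes were not the only ones close to each member. Within a distance of 0.1 there were 737 of 10991 genes for Cxcl12, 253 for Cxcr7 and 181 of 10992 for Cxcr4.

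Most lists of cell type markers, for cells known to use the axis and for others that the sort could hold, had median changes beyond those of the members. In bulk libraries, fewer cells of a type and less RNA per cell cannot be told apart. Of 17 endothelial markers tested, all 17 were higher in NPCs. Their median log2 change was -4.75, beside -0.02 for all genes tested, of which 36.9% were called higher in NPCs. Their summed level was 496 to 507 CPM in NPCs and 57.8 to 59.2 CPM in neurons. Of what was left in neurons, the glucose transporter gene Slc2a1 made up 29.7 and 31.0 CPM. Cldn5, of endothelial tight junctions, was at 47.5 and 45.8 CPM in NPCs and 0.983 and 1.26 CPM in neurons. Of 14 meningeal fibroblast markers, 13 were higher in NPCs (median -2.74, summed level 119.8 to 120.5 CPM against 34.7 to 35.3 CPM). Fbln1 made up 27.8 and 27.5 CPM of the sum in neurons. The collagen gene Col3a1 went from 20.4 ± 1.41 to 1.06 ± 0.070 CPM. Pericyte and mural cell markers were higher in NPCs for 10 of 11 (median -4.54, 275 to 282 CPM against 13.7 to 14.0 CPM). Oligodendrocyte precursor markers were higher in NPCs for 7 of 8 (median -5.73, 210 to 219 CPM against 51.3 to 54.0 CPM), with Pdgfra at a log2 change of -5.92 ± 0.10. Cspg5 carried most of what was left of that sum in neurons, at 51.6 and 48.2 CPM.

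Progenitor markers were higher in the NPC libraries as well. The share of all genes tested that were called higher in NPCs was 36.9%. Of 12 intermediate progenitor markers, all 12 were higher in NPCs (median -1.84, summed level 3998 to 4034 CPM against 1287 to 1376 CPM). Neurog2, which encodes a proneural factor, had a mean of 1362 ± 10.1 CPM in NPCs against 212.6 ± 19.5 CPM in neurons. Radial glia markers were higher in NPCs for 14 of 15 (median -2.47, 4253 to 4274 CPM against 836 to 857 CPM), with Mfge8 at -2.89 ± 0.06. The 15 include Nes, a gene that a reporter of the sort is named after. Microglia markers were higher in NPCs for 14 of 14 (median -1.19, 58.5 to 59.7 CPM against 26.9 to 28.1 CPM). Erythroid genes were higher in NPCs for 9 of 10 (median -2.29, 1893 to 2301 CPM against 311 to 317 CPM), of which the globins Hba-a1 and Hba-a2, and Hbb-b1 and Hbb-b2, are near-identical copies with nearly equal counts. Choroid plexus genes were near 0, with a summed level of 0.717 to 1.06 CPM over all libraries and 2 of 7 tested (median -2.19). Of these Otx2 was called higher in NPCs, from 14 and 13 reads in NPCs and 1 and 0 in neurons, and Ttr did not pass. No choroid plexus gene was called without NPC replicate 1, with counts halved or with the filter of 5 CPM. Fewer of these genes were tested in those settings.

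On the side of neurons, 6 of 9 Cajal-Retzius markers were higher in neurons and 2 in NPCs (median 1.94). Their summed level was 63.1 to 64.3 CPM in NPCs and 213 to 223 CPM in neurons. Reln, which encodes reelin, was at 37.4 and 37.7 CPM in NPCs and 143 and 146 CPM in neurons. For comparison, 35.8% of all genes tested were called higher in neurons and 36.9% in NPCs. Interneuron markers were called in both directions, 8 of 18 in favour of neurons and 6 in favour of NPCs (median 0.20). Their summed level was 340 to 349 CPM in NPCs and 310 to 332 CPM in neurons. With upper-quartile factors or library size only, those higher in neurons became 5. Projection neuron markers were higher in neurons for 11 of 14 (median 1.51, 1510 to 1522 CPM against 5015 to 5109 CPM). The 2 of them called higher in NPCs became 1 with DESeq2, without NPC replicate 1, without NPC replicate 2 or without neuron replicate 1. Pan-neuronal markers were higher in neurons for 12 of 13 (median 2.47, 2422 to 2460 CPM against 9530 to 9811 CPM). The 13 include Dcx, a gene that a reporter of the sort is named after. Which of these cell types carried the members' RNA, and their part in the members' changes, was not tested. No marker of these cell types was at 0 in all 4 libraries.

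**Figure D3:**
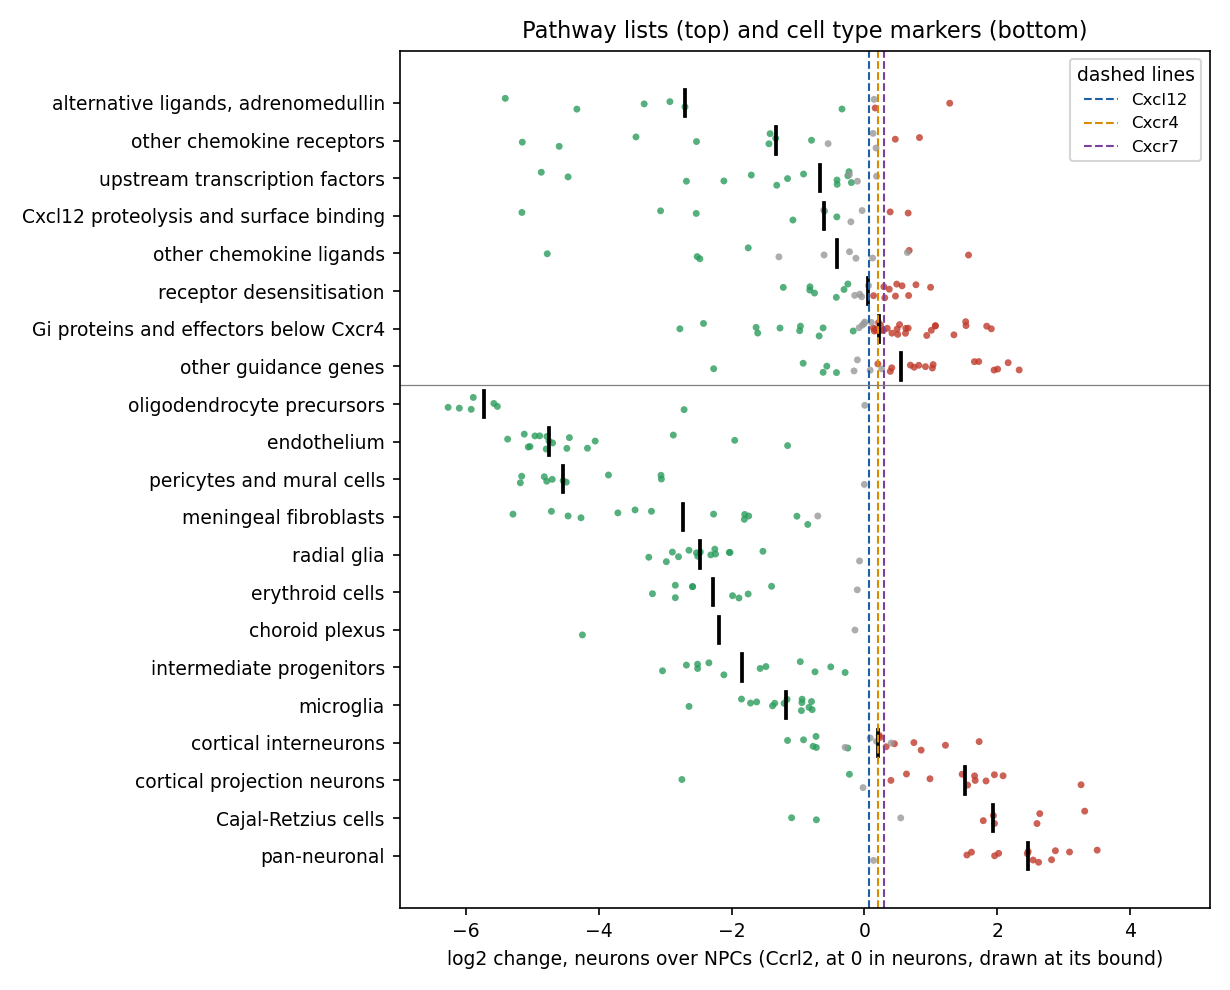
Log2 changes (x axis, neurons over NPCs) of the tested genes of each list (rows), with green points for genes called higher in NPCs, red for neurons and grey for neither, and a black bar at each list's median. Dashed lines mark Cxcl12, Cxcr4 and Cxcr7 at 0.06, 0.20 and 0.29, and list medians run from -5.73 for oligodendrocyte precursors to 2.47 for pan-neuronal markers.

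Most other chemokine genes were near or at 0. Of 35 other ligand genes, 12 were at 0 in every library and 12 were tested. Of those tested, 2 were higher in neurons and 4 in NPCs (median -0.42). Among all genes tested these shares were 35.8% and 36.9%. With counts halved, the 4 ligand genes higher in NPCs became 2. Ccl27a went from 19.0 and 16.4 CPM to 54.1 and 50.8 CPM, a value that is uncertain because the gene overlaps Il11ra1 and has near-identical copies. The platelet chemokine genes Ppbp and Pf4 were higher in NPCs, with log2 changes of -4.78 ± 0.58 and -2.48 ± 0.37, from levels of 0.878 and 1.23 CPM. Of 21 other receptor genes, 13 were tested, 8 of them higher in NPCs and 2 in neurons (median -1.34). Those higher in neurons became 1 with DESeq2, with library size only and without NPC replicate 2.

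Other atypical chemokine receptors, like Cxcr7, bind chemokines without G protein signalling. Of their genes, Ackr2 and Ackr1 were called in opposite directions, and the Ackr1 value is uncertain. Ackr2, which takes up inflammatory chemokines, went from 7.56 and 6.03 CPM in NPCs to 0.246 and 0.310 CPM in neurons (log2 change -4.60 ± 0.24). Ackr1 was higher in neurons, at 8.44 and 8.13 against 12.2 and 10.7 CPM, but overlaps the gene Cadm3 and is uncertain. Ackr4, which overlaps other annotated genes on the opposite strand, was at -0.55 and did not pass. The related receptor gene Ccrl2 was at 2.14 and 2.11 CPM in NPCs and at 0 in both neuron libraries, at least 35.5-fold lower against a floor of 3 counts per library. Cx3cr1, the fractalkine receptor gene of microglia, had a log2 change of -0.80 ± 0.16, which is uncertain because its annotated span overlaps other genes.

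Genes of other ligands of Cxcr4 and Cxcr7 were tested next, together with genes of other receptors for those ligands. They include the peptide adrenomedullin, which Cxcr7 also takes up, and the receptors of adrenomedullin. Of these 9 genes, 6 were called in favour of NPCs and 2 in favour of neurons. Among all genes tested these shares were 36.9% and 35.8%. The median of the 9 was -2.70, which is the value of the receptor gene Ramp2, so it does not describe ligands alone. The 2 higher in neurons became 1 with upper-quartile factors, with library size only and without NPC replicate 2. Adm, which encodes adrenomedullin, was at 4.46 and 5.03 CPM in NPCs and at 0.164 and 0.058 CPM in neurons. Its receptor genes Calcrl and Ramp2 fell as well, with log2 changes of -4.33 ± 0.19 and -2.70 ± 0.14, where Ramp2 overlaps Vps25 on its strand. Hmgb1, whose protein can form a complex with Cxcl12, fell from 2471 ± 4.01 to 1955 ± 43.3 CPM, but overlaps other annotated genes and is uncertain. Calcrl and Ramp2 are also known from endothelium, whose markers were 496 to 507 CPM in NPCs and 57.8 to 59.2 CPM in neurons, and their part in these falls was not tested.

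Of 11 tested genes that cut Cxcl12 or hold it at the cell surface, 6 were called higher in NPCs and 2 in neurons (median -0.60). Among all genes tested these shares were 36.9% and 35.8%. The protease gene Mmp9 was at 25.1 and 26.2 CPM in NPCs and at 0.778 and 0.659 CPM in neurons. Mmp14, which encodes a protease of the cell surface, fell from 105 ± 0.125 to 49.8 ± 1.35 CPM, and Sdc4, a heparan sulfate proteoglycan gene, had a log2 change of -3.07 ± 0.20. Hs2st1, an enzyme gene of heparan sulfate synthesis, had one of -0.41 ± 0.06. Markers of endothelium, mural cells and microglia were also lower in neurons (medians -4.75, -4.54 and -1.19), and their part in these falls was not tested.

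Below the receptors, genes were called in both directions. Of 40 genes of inhibitory G proteins and effectors of Cxcr4, 25 were called higher in neurons and 10 in NPCs (median 0.23). The other 5 did not pass. Among all genes tested, 35.8% were called higher in neurons and 36.9% in NPCs. With library size only the 25 became 16, where 3840 of all 15292 genes tested were called higher in neurons. The G protein subunit gene Gng2 went from 156 and 154 CPM to 568 and 598 CPM, and Pak1, a kinase that acts on the actin cytoskeleton, from 83.0 and 83.0 to 237 and 241 CPM. Dock1, an activator of Rac in cell migration, went the other way, from 48.5 and 48.7 to 8.91 and 9.20 CPM. The alpha subunit genes through which Cxcr4 signals, chosen after their values were seen, differed among themselves. Gnai2 fell from 391 ± 0.631 to 162 ± 3.42 CPM, Gnai1 rose from 86.5 ± 3.30 to 133 ± 7.03 CPM, and Gnai3 was at 355 ± 5.06 and 348 ± 2.14 CPM and did not pass (edgeR adjusted p = 0.61).

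Of 21 genes of receptor desensitisation and trafficking, 10 were called in favour of neurons and 7 in favour of NPCs (median 0.06). Among all genes tested these shares were 35.8% and 36.9%. With library size only, the 7 became 11. The arrestin gene Arrb1, whose product binds activated Cxcr4 and Cxcr7, went from 21.4 and 20.8 CPM in NPCs to 40.8 and 43.2 CPM in neurons, which is a log2 change of 1.00 ± 0.07. Rgs3, an inhibitor of G protein signals, fell by 1.22 on the log2 scale, and the ubiquitin ligase gene Nedd4 had a log2 change of -0.82 ± 0.06.

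Transcription factor genes reported upstream of the axis were called in favour of NPCs for 13 of 16 tested and in favour of neurons for 0 (median -0.66). At an unadjusted p under 0.05 the count higher in neurons was also 0, and it was 0 with DESeq2 and limma-voom. It became 1 with the replicate number as a block and without neuron replicate 1. Neurog2 and Eomes, factors of intermediate progenitors that also stand in that marker list, had log2 changes of -2.68 ± 0.07 and -2.12 ± 0.06. Epas1, a hypoxia-inducible factor gene, went from 16.3 and 16.3 CPM to 0.655 and 0.465 CPM, and the part of the endothelial and mural markers, which were lower in neurons by the medians given above, was not tested. Nrf1, named because its palindrome stands in the Cxcr4 window printed above, had a log2 change of -0.20 ± 0.06.

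**Figure D4:**
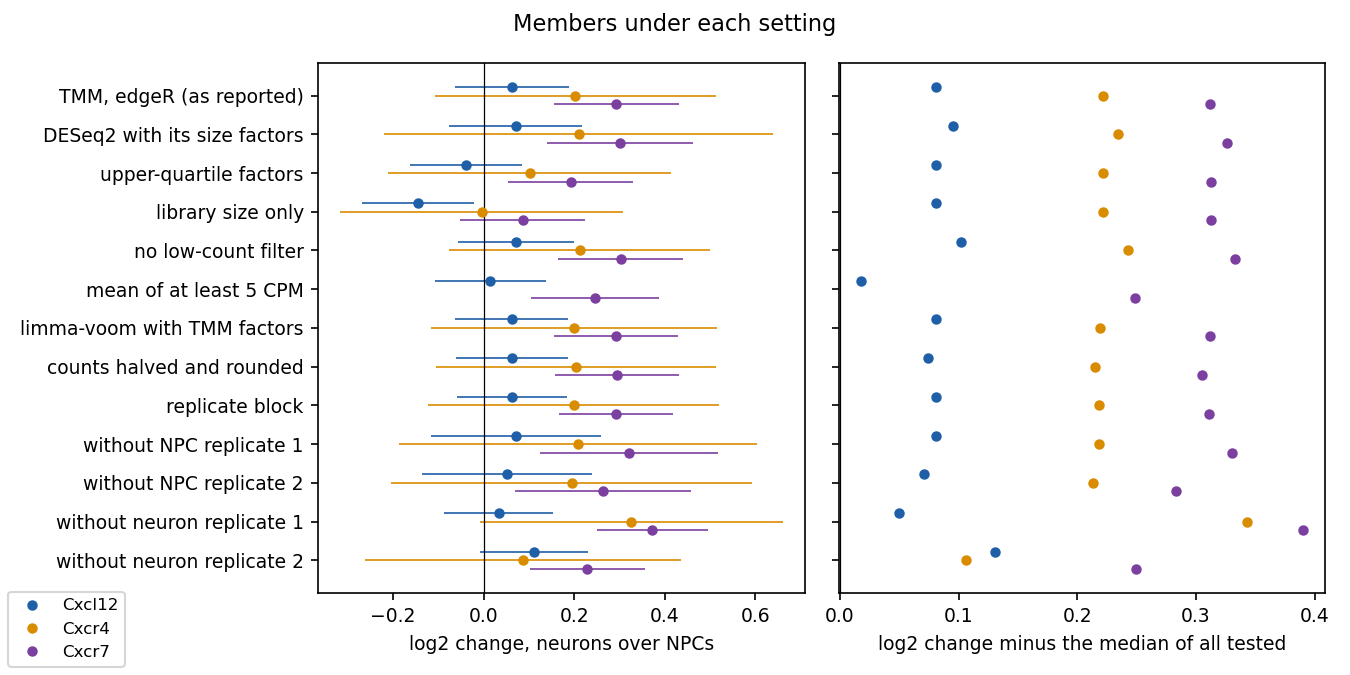
Left, the log2 change of each member with its 95% interval under each setting; right, the same change minus the median of all genes tested. Cxcr7 was above 0 in every setting and its interval reached 0 with library size only, where all values shifted by the same amount; Cxcr4 has no value with the filter of 5 CPM.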

How the data were processed

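RNA-seq gene counts of 2 NPC and 2 neuron libraries were used, grouped by their titles. The authors deposited 1 table of estimated counts per gene and library, not scaled between libraries, which are not whole numbers. Build mm9 and the tools TopHat 1.2.0, SAMtools 0.1.18 and CASAVA 1.9 are named, without roles, per the submitters' processing notes. How reads were counted (tool, annotation, strand, multiple alignments) is not given in the sources used here.

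Counts were rounded to whole numbers. The low-count filter filterByExpr kept 15292 genes with all 3 members, and the groups were compared with the quasi-likelihood test of edgeR 4.0.16 (R 4.3.3, TMM factors from 0.928 to 1.08, two-sided, unpaired). Standard errors were derived from the F statistic, and intervals use the test's degrees of freedom. The test was also run on simulated counts of 15175 genes with the same groups and the same dispersion for every gene. Of 50 genes each, it recovered 26 at a 1.25-fold change, 44 at 1.5-fold, 46 at 2-fold and 50 at 4-fold. No other simulated gene changed, whereas 72.6% of the measured genes were called. This recovery therefore does not give the power for the members.

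The members and the 21 gene lists (336 genes, 335 with a row, 294 tested) were chosen with earlier results of these data known. Lists are described by counts and medians, with no set test. Named genes were the members with their 3 nearest genes of at least 5 CPM (pseudocount 0.5 CPM), Nes and Dcx, and, in each list, the genes with the smallest p (3 for pathways, 1 for cell types) and the highest mean CPM. Not all are printed, and those named as pairs or families of these (Ackr4, Gnai1, Gnai2, Gnai3, Nrf1, Erbb4, the globins, Vps25, Cadm3 and Il11ra1) were added after their values were seen. Alternatives used other scalings (upper-quartile, library size), filters, DESeq2 1.42.0, limma-voom (limma 3.58.1), halved counts, a replicate block and leaving out each library. Promoter sequences are from RefSeq, GRCm38.p6, with 3 of 3 members matched. Duplicates differed by more than sampling noise (chi-square per gene 4.56 and 14.1) and were kept apart. Poisson intervals cover counting error only.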

Additional observations from a re-analysis of the deposited data

How the results depend on the processing

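The direction of Cxcl12 and of Cxcr4, and the call of Cxcr7, depended on the scaling. With upper-quartile factors Cxcl12 was at -0.039, and with library size only Cxcl12 was at -0.14 (adjusted p = 0.035, called higher in NPCs), Cxcr4 at -0.0041 and Cxcr7 at 0.086 (not called, adjusted p = 0.24); these scalings shift all genes alike. Cxcr7 was called under the other 11 of 12 alternatives, from 0.19 to 0.37. Leaving out 1 library gave 0.03 to 0.11 for Cxcl12, 0.09 to 0.33 for Cxcr4 and 0.23 to 0.37 for Cxcr7. The count of genes called stayed within 1.5 times of 11108, from 8315 with the filter of 5 CPM to 11450. Cxcr4, at a mean of 4.40 CPM, was not tested under that filter. Without 1 library, the difference of the log2 ratio ran from -0.29 to 0.024 for Cxcl12 to Cxcr4, from -0.34 to -0.12 for Cxcl12 to Cxcr7 and from 0.047 to 0.14 for Cxcr7 to Cxcr4. The duplicate number as a replicate block gave 0.06 for Cxcl12, 0.20 for Cxcr4, 0.29 for Cxcr7 (adjusted p = 9.5e-06) and 11206 genes called. For Cxcr7 the standard error was 0.064, beside 0.065 in the main fit. The lower p thus reflects the degrees of freedom of the block fit, not a larger or clearer difference. Whether same-numbered libraries are paired is not given in the sources used here. Their deviations were barely correlated (Pearson's r = 0.051 across 10992 genes, which are not independent). Such a value cannot exclude pairing, and the main test was unpaired. Of 504 list counts under the alternatives, 33 moved by more than 1.5 times, 14 of them with the filter of 5 CPM, which tests fewer genes. For the others the cause was not tested. With counts halved, Cxcr4 was at 0.20 (adjusted p = 0.21).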

Other observations

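Of 24 other genes of receptors and ligands that guide tangentially migrating cells, 15 were called in favour of neurons, 5 in favour of NPCs and 4 in neither direction (median log2 change 0.55, beside -0.02 for all genes tested). Over all genes tested, 35.8% were called in favour of neurons and 36.9% in favour of NPCs. The Slit receptor genes Robo1 and Robo2 rose from 48.5 and 47.8 CPM to 208 and 224 CPM, and from 126 and 140 CPM to 433 and 444 CPM. Nrp1, a semaphorin receptor gene, went from 182 and 183 CPM in NPCs to 577 and 574 CPM in neurons, and the adhesion gene Cdh2 had a log2 change of 0.39 ± 0.05. Erbb4, a neuregulin receptor gene of migrating interneurons that was picked out after its value was seen, was at 8.08 and 8.81 CPM in NPCs and 8.56 and 9.38 CPM in neurons, with no call (edgeR adjusted p = 0.49).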
